A study of Mus musculus with 7 samples.

Results

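A set of 10 genes of Wnt supply was read out in liver endothelial cells of mice with a knockout (KO) of Maf, which encodes the transcription factor c-Maf, and in controls. They are the Wnt ligand genes Wnt2, Wnt9b, Wnt4, Wnt5a, Wnt5b and Wnt11, the R-spondin genes Rspo1 and Rspo3, and the Wnt secretion genes Wls and Porcn. They were chosen by name, and all 10 were found among the 52636 Ensembl genes of the deposited count table. The study sequenced polyadenylated RNA of liver endothelium sorted by flow cytometry, in 4 libraries labelled c-Maf KO and 3 labelled control, which the design text calls WT. The labels give no other allele, agent, strain or age for either group. How Maf was deleted, in which cells and when, is not given in the sources used here, nor whether each library came from a separate mouse, so p-values measure the spread between libraries, which may be partly technical.

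Wnt proteins are secreted lipid-modified ligands that signal to nearby cells through Frizzled receptors. Porcn, an enzyme of the endoplasmic reticulum, attaches the lipid, and Wls carries the lipid-modified protein to the cell surface. R-spondins strengthen the signal by sparing Frizzled receptors from removal. In the liver, endothelial cells around the central vein are known as a source of Wnt2, Wnt9b and Rspo3, which keep β-catenin target genes active in the neighbouring hepatocytes and so set metabolic zonation.

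Totals ran from 24772716 to 32960007 counts per library. Levels are CPM, each library scaled to a common total of counts with the trimmed mean method TMM, and 3 counts, the limit taken for a count of 0, correspond to 0.0873 to 0.132 CPM. Rose and fell mean an adjusted p under 0.05 in edgeR's quasi-likelihood test over all 15512 genes that passed the filter on low counts. Maf itself stood at 28.9, 159, 124 and 37.7 CPM in KO libraries 1 to 4, against 1664, 2088 and 2147 CPM in controls 1 to 3. The 8 pan-endothelial markers summed to 9832 to 14364 CPM in the KO and 17514 to 19462 CPM in controls, and no marker of this list was at 0. The 8 sinusoidal markers summed to 7006 to 11460 CPM in the KO and 32953 to 36035 CPM in controls. Control 3 was the library highest in stellate and fibroblast markers, and KO 1 the highest in hepatocyte markers. The lane in the labels was 4 for control 3 and KO 3 and 5 for the other libraries.

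Upstream sequence is shown for 2 genes that fell, Wnt2 and Wls, and for the ligand gene Wnt9b, whose difference did not pass, to set the letters before their starts side by side. The stretches end just before the transcription start in RefSeq or GENCODE, whichever comes first, and capitals mark TGCTGA, the half-site of the element that MAF proteins bind. RefSeq windows (GRCm38.p6) were at hand for 7 of the 10 genes.
Wnt2 (chr6:18030586-18030695, minus strand): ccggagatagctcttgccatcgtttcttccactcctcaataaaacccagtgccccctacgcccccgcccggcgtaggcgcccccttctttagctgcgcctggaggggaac
Wls (chr3:159839400-159839649, plus strand): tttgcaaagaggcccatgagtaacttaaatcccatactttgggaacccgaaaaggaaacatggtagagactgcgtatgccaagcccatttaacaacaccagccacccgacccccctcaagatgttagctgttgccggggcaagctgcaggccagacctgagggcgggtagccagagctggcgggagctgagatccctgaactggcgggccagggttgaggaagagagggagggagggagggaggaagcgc
Wnt9b (chr11:103749822-103750071, minus strand): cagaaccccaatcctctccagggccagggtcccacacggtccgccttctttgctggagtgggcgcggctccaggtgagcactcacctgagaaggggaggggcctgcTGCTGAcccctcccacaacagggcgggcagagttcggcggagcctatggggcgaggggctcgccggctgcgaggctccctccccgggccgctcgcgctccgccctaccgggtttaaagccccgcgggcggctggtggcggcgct
The 250 bases before each RefSeq start were searched for TGCTGA on both strands. Wnt9b held a single match, which begins 144 bases before the start. No match was found in the windows of Wnt2, Wls, Wnt4, Wnt5b, Wnt11 or Rspo1. Of 32851 such windows of all genes, 16.1% held this motif. The 7-letter AP-1 site TGACTCA, searched likewise, does not overlap that match and was found in an upstream window of Wnt5b. It was present in 4.46% of all windows. Such letter matches are descriptions and not binding sites.

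Of the 10 genes, 8 passed the filter on low counts. Wnt2, Rspo3, Wls and Porcn fell, Wnt11 rose, and Wnt9b, Wnt4 and Wnt5b did not pass the test. Wnt5a and Rspo1 were under the filter. Among all genes tested, 45.2% were called, 22.2% as lower and 23.0% as higher in the KO. The median log2 fold change of the 8 tested genes was -0.85, beside 0.0433 for all genes tested. In 5 of the 8 the KO range lay clear of the control range, in 4 below it and in 1 above it. Among all genes tested, the ranges were separate in 50.3%, with the KO below in 24.7% and above in 25.6%.

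**Figure D1:**
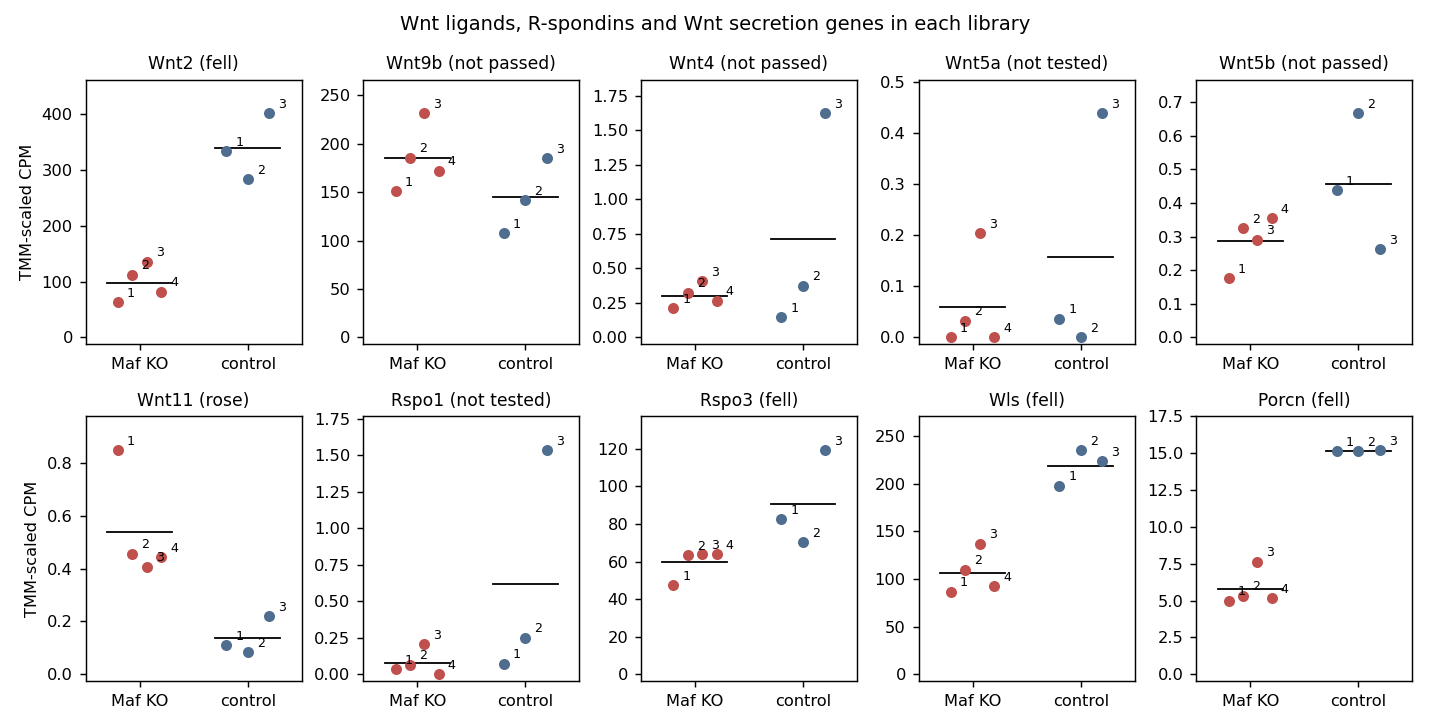
Each panel plots 1 gene, with TMM-scaled CPM on the y axis, points for the single libraries numbered by replicate and lines for the group means, in Maf KO (n = 4) and control (n = 3). Wnt2, Wls, Porcn and Rspo3 are lower in every KO library than in every control, Wnt9b overlaps, and Rspo1, Wnt4 and Wnt5a are highest in control 3.

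Wnt2 fell, and in control endothelium it was the most abundant of the 10 genes per length of exon. The gene lies on the minus strand of chromosome 6, at bases 17988940 to 18030585 of GRCm38 (protein-coding, ENSMUSG00000010797). It stood at 63.0, 112, 136 and 82.0 CPM in KO libraries 1 to 4, against 333, 283 and 401 CPM in controls 1 to 3. Every KO library was below every control, and KO 2 and KO 3 were the higher KO libraries. The same 2 libraries were the higher KO libraries in Maf, in Wnt9b and in the pan-endothelial and sinusoidal sums. Wnt2 averaged 98.2 ± 32.1 CPM in the KO (SD, n = 4) and 339 ± 59.1 CPM in controls (SD, n = 3). This is a log2 fold change of -1.79 with an SE of 0.242 (adjusted p = 0.000469, edgeR), a 3.45-fold lower level. Per 1000 of the summed pan-endothelial markers, Wnt2 was 6.40 to 9.44 in the KO and 14.6 to 22.9 in controls. On that scale, chosen after seeing the data, its log2 fold change was -1.16 (adjusted p = 0.000725, edgeR). In bulk RNA, fewer pericentral or other cells that hold Wnt2 RNA and less Wnt2 RNA per cell cannot be told apart. The sinusoidal sums were lower too, at 7006 to 11460 CPM in the KO and 32953 to 36035 CPM in controls. Of those 8 sinusoidal markers 7 fell and 0 rose, and their part in the Wnt2 result was not tested. Summed markers of central vein and pericentral endothelium, 8 genes of which 5 fell and 2 rose, ran from 1611 to 1830 CPM in the KO and from 2263 to 3128 CPM in controls, and their part in the Wnt2 result was not tested. Among these markers the receptor tyrosine kinase gene Kit had the largest change, a log2 fold change of -3.26. Kit averaged 80.1 ± 28.2 CPM in the KO and 767 ± 144 CPM in controls. It held 54.2 to 113 CPM of the KO sums and 604 to 877 CPM of the control sums. Without Kit the sums of the groups overlap. KO 4, with 59.2 CPM of Kit in a sum of 1830 CPM, then lies above control 1. That control held 604 CPM of Kit in a sum of 2263 CPM. The 2 markers that rose were Fabp4, at means of 590 CPM in the KO and 353 CPM in controls, and Lhx6, at 143 and 107 CPM. Vwf, the von Willebrand factor gene of large vessels, averaged 232 ± 46.7 CPM in the KO and 244 ± 42.6 CPM in controls (adjusted p = 0.751, edgeR).

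Wnt9b, the other abundant ligand gene, did not pass the test. It lies on the minus strand of chromosome 11, at bases 103727364 to 103749821 of GRCm38 (protein-coding, ENSMUSG00000018486). KO libraries 1 to 4 held 151, 185, 231 and 172 CPM, against 108, 142 and 185 CPM in controls 1 to 3. The groups overlap, since control 3 lies above KO 1 and KO 4. The log2 fold change was 0.35, with a 95% interval from -0.0883 to 0.797 (adjusted p = 0.167, edgeR), whose lower bound is far from the fall of Wnt2. In each group the lane 4 library was the highest, and with the lane as covariate Wnt9b passed at a log2 fold change of 0.41 (adjusted p = 0.0279, edgeR). In lane 5 alone it did not pass (0.40, adjusted p = 0.0575, edgeR). It also passed as higher in the KO with library totals as scale (0.61, adjusted p = 0.0232) and without control 3 (0.57, adjusted p = 0.0480), both by edgeR. With the pan-endothelial sum as scale, chosen after seeing the data, it passed at a log2 fold change of 1.01 (adjusted p = 0.00164, edgeR), while 5 of the 8 markers in that sum had themselves fallen.

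The balance of the 2 ligands was compared within libraries. Per kilobase (kb) of exon, Wnt2 averaged 43.6 ± 14.3 CPM per kb and Wnt9b 40.9 ± 7.50 CPM per kb in the KO (SD, n = 4). In controls Wnt2 averaged 150 ± 26.2 CPM per kb and Wnt9b 32.0 ± 8.61 CPM per kb (SD, n = 3). The ratio of Wnt2 to Wnt9b within a library, which no scaling of libraries can change, was 0.835, 1.21, 1.18 and 0.955 in KO libraries 1 to 4, against 6.21, 4.01 and 4.34 in controls 1 to 3. The groups do not overlap. Wnt2 made up 45.3 to 54.6% of the summed level of the 6 Wnt genes in the KO and 79.9 to 86.0% in controls. That sum, in CPM per kb, was 61.7 to 112 in the KO and 157 to 219 in controls. A two-sided exact permutation test of the log2 ratio over libraries gave p = 0.0571. Over the 35 splits of 4 against 3 libraries, this is the smallest p of this test, which doubles the one-sided p. Ratios of Wnt2 to Rspo3 and of Rspo3 to Wnt9b were compared likewise, and all 3 pairs had the same p, adjusted p = 0.0571 in each exact test. Wnt2 over Rspo3 averaged 2.23 ± 0.542 in the KO (n = 4) and 5.22 ± 0.533 in controls (n = 3). Rspo3 over Wnt9b averaged 0.476 ± 0.0588 in the KO and 0.930 ± 0.197 in controls.

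**Figure D2:**
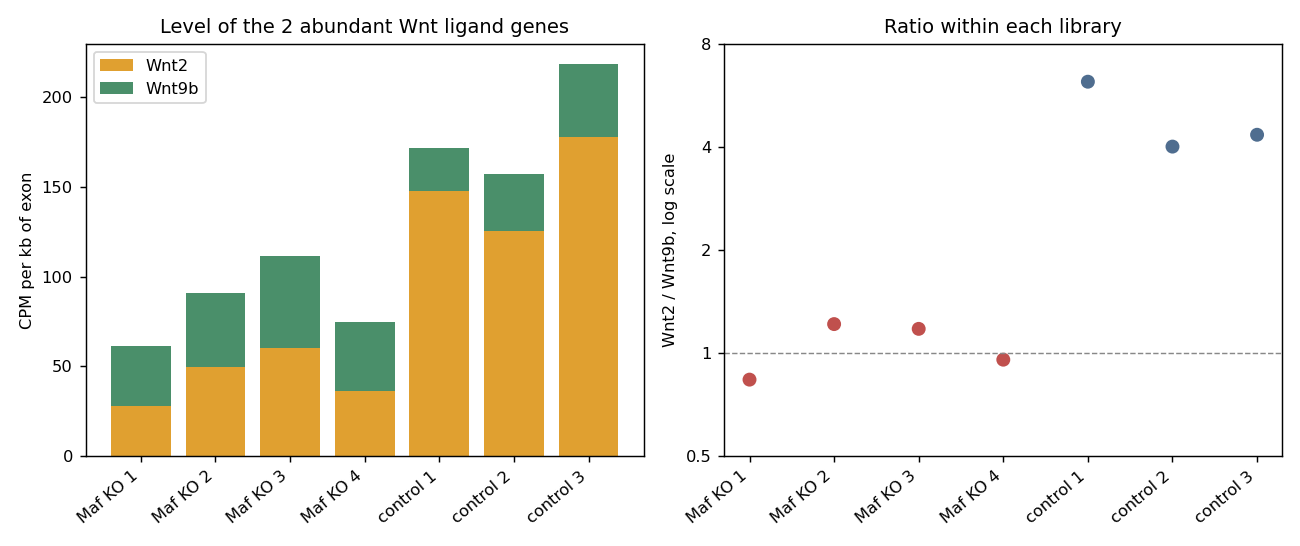
Left, stacked bars give the level of Wnt2 and Wnt9b in CPM per kb of exon in each library, from 0. Right, points give the ratio of Wnt2 to Wnt9b in each library on a log2 axis, between 0.835 and 1.21 in the 4 Maf KO libraries and between 4.01 and 6.21 in the 3 controls, with a dashed line at 1.

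Rspo3, the R-spondin of central vein endothelium, also fell, to a level 1.52-fold lower in the KO. It lies on the minus strand of chromosome 10, at bases 29452416 to 29535867 of GRCm38 (protein-coding, ENSMUSG00000019880). KO libraries 1 to 4 held 47.3, 63.2, 64.0 and 63.9 CPM, against 82.4, 70.4 and 119 CPM in controls 1 to 3. The groups do not overlap, but the gap between KO 3 and control 2 is small beside the spread of the controls. Its log2 fold change of -0.60 passed (SE 0.180, adjusted p = 0.0226, edgeR). The call was lost without control 3 (log2 fold change -0.36, adjusted p = 0.0805), with upper-quartile factors (-0.48, adjusted p = 0.0519) and with library totals (-0.35, adjusted p = 0.143), each by edgeR. Set against the summed pan-endothelial markers, Rspo3 stood at 4.81, 5.21, 4.46 and 5.97 per 1000 in KO libraries 1 to 4 and at 4.33, 3.62 and 6.82 per 1000 in controls 1 to 3, so that the groups overlap. Control 3, the highest library for Rspo3, also held 179 CPM of stellate and fibroblast markers, against 23.4 and 53.5 CPM in controls 1 and 2 and 11.7 to 49.8 CPM in the KO. Of these 10 markers 5 fell and 0 rose, and their part in the Rspo3 result was not tested. An antisense gene, Gm48159, shares 404 exonic bases with Rspo3 and held at most 1 count in any library.

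The second R-spondin gene, Rspo1, was near the detection limit and followed a single library. KO libraries 1 to 4 held 1, 2, 7 and 0 counts, against 2, 6 and 35 counts in controls 1 to 3. It was under the filter. With no filter its log2 fold change was -2.88 (adjusted p = 0.0237, edgeR over 28753 genes). Of the 43 counts in controls, 35 were in control 3, and a fit with neither the filter nor control 3 was not run. Control 3 also held the most RNA of mesothelial and fibroblast genes. Msln, the mesothelin gene, stood at 0, 0.0326, 1.13 and 0 CPM in KO libraries 1 to 4 and at 0.218, 0.416 and 16.9 CPM in controls 1 to 3. The 10 stellate and fibroblast markers summed to 31.0, 24.4, 49.8 and 11.7 CPM in KO libraries 1 to 4 and to 23.4, 53.5 and 179 CPM in controls 1 to 3. Of these 10 markers 5 fell and 0 rose, and none was at 0 in all libraries. The 6 mesothelial markers summed to 42.2, 18.9, 38.4 and 43.6 CPM in KO libraries 1 to 4 and to 14.2, 18.1 and 61.7 CPM in controls 1 to 3. Of the 4 that passed the filter 0 fell and 1 rose, Gpm6a, at 34.5 ± 11.3 CPM in the KO and 17.2 ± 4.69 CPM in controls (adjusted p = 0.0196, edgeR). The part of both lists in the Rspo1 values was not tested.

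Wnt4 and Wnt5a, ligands known mainly for signalling without β-catenin, showed the same high library. Wnt4 stood at 0.212, 0.326, 0.407 and 0.266 CPM in KO libraries 1 to 4 and at 0.146, 0.375 and 1.62 CPM in controls 1 to 3. It did not pass (log2 fold change -1.19, SE 0.687, adjusted p = 0.184, edgeR), and without control 3 its log2 fold change was 0.24 (adjusted p = 0.744, edgeR). Without control 1 it passed as lower in the KO (-1.70, adjusted p = 0.0454, edgeR). Wnt5a held 0, 1, 7 and 0 counts in KO libraries 1 to 4 and 1, 0 and 10 counts in controls 1 to 3, so that 5 of the 7 libraries were at or under 1 count. A difference in Wnt5a was not detectable at this depth. In both groups the highest library for Wnt5a, Wnt4 and Rspo1 was the one of lane 4, KO 3 and control 3. Of the 6 mesothelial markers, 5 were highest in these libraries of each group, and Gpm6a, which makes up most of their sum in the KO, was lower in KO 3 than in KO 1 and KO 4, as was the sum. Their part in the Wnt4 and Wnt5a values was not tested.

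**Figure D3:**
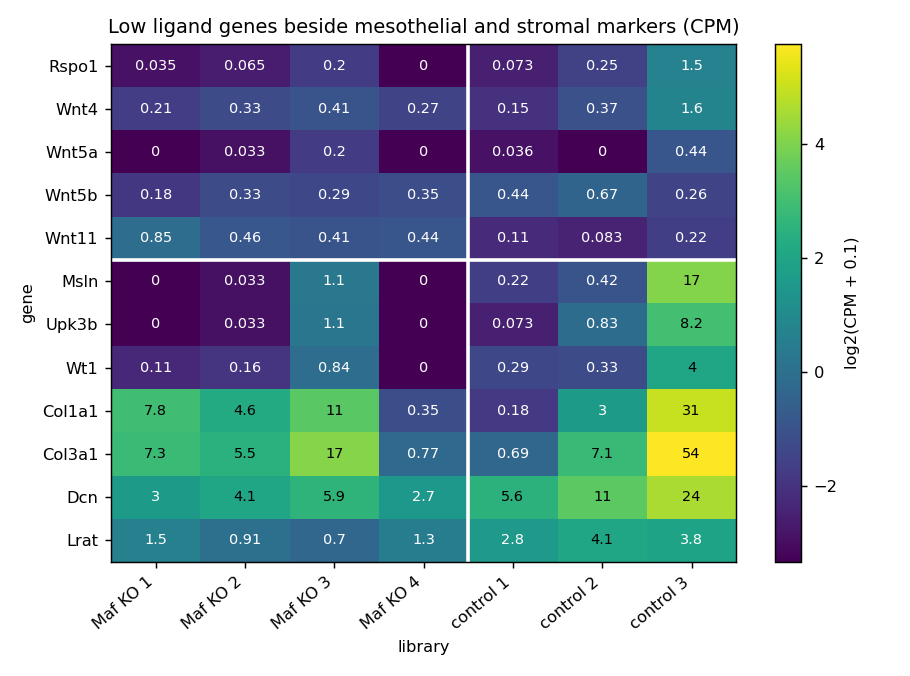
Each cell gives the CPM of a gene (y axis) in a library (x axis), coloured by log2(CPM + 0.1), for the 5 ligand genes of low level above the line and mesothelial (Msln, Upk3b, Wt1) and stellate or fibroblast markers (Col1a1, Col3a1, Dcn, Lrat) under it. Other markers of these lists are not drawn, among them the mesothelial marker Gpm6a, which rose (34.5 CPM in the KO, 17.2 CPM in controls). Rspo1, Wnt4 and Wnt5a are highest in control 3, where Msln reached 16.9 CPM, while Wnt11 is higher in the 4 Maf KO libraries, left of the vertical line.

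Wnt5b and Wnt11 were also scarce. Wnt5b, a close relative of Wnt5a, stood at 0.177 to 0.354 CPM in the KO and at 0.263 to 0.666 CPM in controls, with overlapping groups (log2 fold change -0.65, SE 0.409, adjusted p = 0.219, edgeR). Wnt11, a ligand known for tissue movements in embryos, rose. It held 24, 14, 14 and 15 counts in KO libraries 1 to 4, against 3, 2 and 5 counts in controls 1 to 3. As levels these were 0.849, 0.456, 0.407 and 0.443 CPM in the KO and 0.109, 0.0833 and 0.219 CPM in controls. The groups do not overlap, and KO 1 stood well above the other KO libraries. Its log2 fold change of 1.95 passed (SE 0.486, adjusted p = 0.0106, edgeR). The call was lost without control 2 (1.70, adjusted p = 0.0509, edgeR). Markers of other cells moved beside it. Of 10 hepatocyte markers 5 rose and 1 fell, and they summed to 763 to 1710 CPM in the KO, highest in KO 1, and to 763 to 1266 CPM in controls. The hepatocyte marker that fell, Glul, made up most of the control sums, at 481 ± 40.8 CPM in the KO and 767 ± 246 CPM in controls. Alb, the most abundant of the 5 that rose, stood at 229 to 879 CPM in the KO and 181 to 203 CPM in controls, without overlap. Of 5 platelet and megakaryocyte markers 4 rose and 0 fell, with sums of 29.0 to 42.5 CPM in the KO and 16.5 to 20.4 CPM in controls, while Pf4, the platelet factor 4 gene, did not pass (3.31 ± 0.615 CPM in the KO and 4.90 ± 1.73 CPM in controls). Itga2b made up most of these platelet sums. Of 6 erythroid markers 5 passed the filter and 0 passed the test, with sums of 5.76 to 39.9 CPM in the KO, again highest in KO 1, and 2.50 to 10.1 CPM in controls. The part of these cells in the Wnt11 result was not tested. Even in the KO, Wnt11 made up 0.0882 to 0.333% of the summed Wnt level per kb, against 0.0128 to 0.0242% in controls.

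Both genes of the secretion step fell. Wls, the carrier of lipid-modified Wnt proteins, lies on the plus strand of chromosome 3, at bases 159839672 to 159938664 of GRCm38 (protein-coding, ENSMUSG00000028173). KO libraries 1 to 4 held 86.4, 110, 137 and 92.5 CPM, against 198, 235 and 223 CPM in controls 1 to 3. The KO libraries were all lower, with a log2 fold change of -1.04 (SE 0.156, adjusted p = 0.000810, edgeR). Porcn, the acyltransferase that modifies Wnt proteins, lies on the minus strand of chromosome X, at bases 8193848 to 8206525 of GRCm38 (protein-coding, ENSMUSG00000031169). It stood at 4.99, 5.34, 7.62 and 5.16 CPM in KO libraries 1 to 4, against 15.1, 15.2 and 15.2 CPM in controls 1 to 3. The controls were nearly equal and the groups lie far apart, with a log2 fold change of -1.39 (SE 0.162, adjusted p = 0.000208, edgeR). Per 1000 of the summed pan-endothelial markers, Wls was 8.64 to 9.54 in the KO and 10.4 to 12.8 in controls, and Porcn 0.440 to 0.531 in the KO and 0.779 to 0.869 in controls. Both stayed lower without overlap on that scale, while 5 of the 8 pan-endothelial markers had themselves fallen. In lane 5 alone, 3 KO libraries against 2 controls, the log2 fold changes were -1.89 for Wnt2, -0.44 for Rspo3, -1.22 for Wls and -1.60 for Porcn, all with an adjusted p under 0.05 by edgeR, and lane 4, with 1 KO library and 1 control, allowed no test. On the pan-endothelial scale Wnt9b was 15.3 to 16.1 in the KO and 5.64 to 10.6 in controls.

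**Figure D4:**
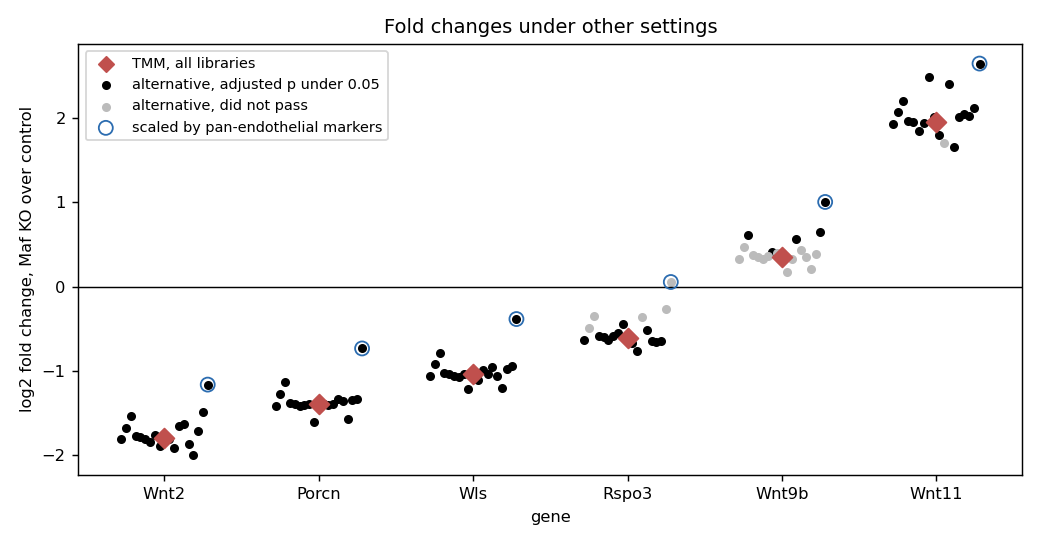
Diamonds give the log2 fold change of Maf KO over control with TMM scaling and all libraries, dots the same under each alternative, dark where the adjusted p was under 0.05, for 6 genes (x axis). Wnt2, Porcn and Wls stay below 0 in every alternative run, Rspo3 comes to 0.0563 on the pan-endothelial scale (ringed), and Wnt9b and Wnt11 stay above 0.

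Ordered by level per kb of exon, the KO ran from Wnt2 (43.6) and Wnt9b (40.9) through Rspo3 (19.3), Wls (12.1) and Porcn (1.93) to Wnt11, Wnt5b, Wnt4, Rspo1 and Wnt5a, all at or under 0.130 CPM per kb. In controls the order was Wnt2 (150), Wnt9b (32.0), Rspo3 (29.4), Wls (24.9) and Porcn (5.06), followed by Rspo1, Wnt5b, Wnt4, Wnt11 and Wnt5a, at or under 0.320 CPM per kb. The library ranges of Wnt2 and Wnt9b overlap in the KO, at 27.9 to 60.1 and 33.4 to 51.2 CPM per kb. In controls the ranges of Wnt9b (23.8 to 41.0), Rspo3 (22.8 to 38.6) and Wls (22.5 to 26.8) overlap, and Wnt2 (126 to 178) stands above them. Among all genes tested, Wnt2 was at the 93.6th percentile of level per kb in the KO and at the 98.5th in controls.

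Over the 7 libraries the profile of Wnt2 was most like those of Commd8, Cant1 and Ikbip, with Pearson r of 0.9991, 0.9952 and 0.9950 on log2 CPM, among 9328 genes whose average log2 CPM reached 3. The genotype difference dominates this measure, and 2147 genes exceeded an r of 0.9. Wnt9b was most like Prcp, Fam122b and Cenpj (r of 0.9683, 0.9522 and 0.9401), with 11 genes over 0.9. Rspo3 was most like Kif1bp, Neu3 and Lgals1 (r of 0.9612, 0.9469 and 0.9446), with 24 genes over 0.9. These values are descriptions across libraries that share genotype and lane.

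Further genes of the Wnt pathway were read from lists. Of the 13 other Wnt genes with Rspo2 and Rspo4, 15 in all, only Wnt9a and Wnt2b passed the filter. Wnt9a fell, at 0.141, 0.228, 0.175 and 0.118 CPM in KO libraries 1 to 4 and 0.655, 0.916 and 1.45 CPM in controls 1 to 3 (log2 fold change -2.57, SE 0.391, adjusted p = 0.000875, edgeR). These were 4, 7, 6 and 4 counts in the KO and 18, 22 and 33 counts in controls. The KO values thus lie near the detection limit. Wnt2b stood at 0.761 ± 0.159 CPM in the KO and 0.652 ± 0.0917 CPM in controls (adjusted p = 0.541, edgeR).

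Genes that move Wls and Wnt proteins through the cell were lower in part. Of 8 such genes 6 fell, 0 rose and Snx3 and Tmed5 did not pass, with a median log2 fold change of -0.57, beside 22.2% lower, 45.2% called in all and a median of 0.0433 among all genes tested. Retromer returns Wls from endosomes to the Golgi. Its subunit genes fell, with log2 fold changes of -0.93 for Vps26a, -0.72 for Vps35, -0.62 for Vps29 and -0.30 for Vps26b. Vps29, with the smallest p of the list, averaged 62.0 ± 4.97 CPM in the KO and 95.1 ± 2.55 CPM in controls (adjusted p = 0.000453, edgeR). Snx3, the sorting nexin that works with retromer on Wls, averaged 208 ± 28.3 CPM in the KO and 245 ± 9.30 CPM in controls (adjusted p = 0.136, edgeR). The cargo receptor genes Tmed10 and Tmed2, of transport between endoplasmic reticulum and Golgi, had log2 fold changes of -0.66 and -0.53. When the pan-endothelial sum set the scale, 1 of the 8 fell and 3 rose, so the direction of this list depends on the scale.

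**Figure D5:**
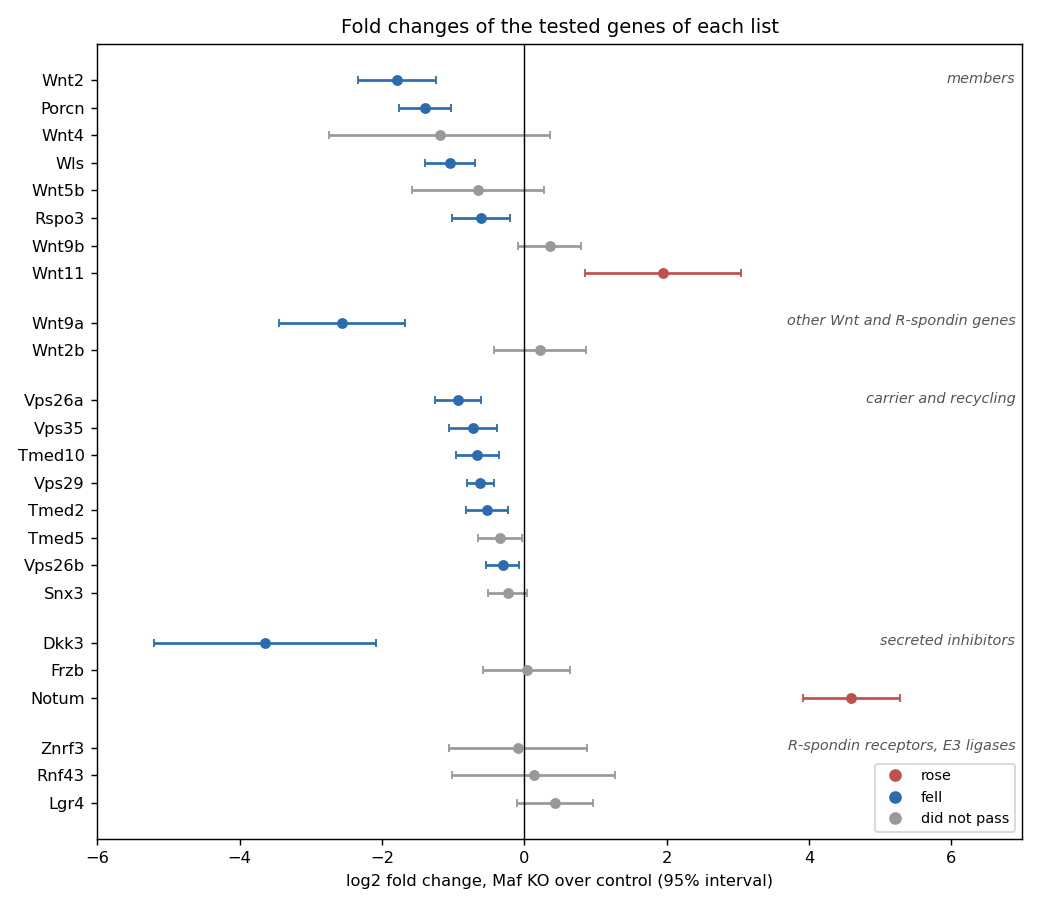
Points give the log2 fold change of Maf KO over control and bars its 95% interval, for each tested gene (y axis) of the 5 lists. Wnt2, Porcn, Wls and Rspo3 lie left of 0 and Wnt11 right of it, and the largest changes are those of Notum (4.60) and Dkk3 (-3.64) among the secreted inhibitors.

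Of 12 secreted Wnt inhibitors 3 passed the filter. Notum, an enzyme that removes the lipid from Wnt proteins outside the cell, rose, and was scarce in controls. It held 7.32, 6.71, 4.45 and 6.79 CPM in KO libraries 1 to 4, against 0.219, 0.208 and 0.351 CPM in controls 1 to 3 (log2 fold change 4.60, SE 0.303, adjusted p = 1.33e-05, edgeR). KO 1, the highest library for Notum, was also the highest in hepatocyte markers, at 1710 CPM beside 763 to 1266 CPM in controls. KO 2, the lowest KO library in that sum at 763 CPM, held 6.71 CPM of Notum. Glul made up 439 CPM of the KO 2 sum, while Alb, at 229 CPM in KO 2, was above every control. Of these 10 markers 5 rose and 1 fell, Glul, which made up most of the control sums. Glul averaged 481 ± 40.8 CPM in the KO and 767 ± 246 CPM in controls. Alb, which rose, stood at 229 to 879 CPM in the KO and 181 to 203 CPM in controls. Platelet and megakaryocyte markers summed to 29.0 to 42.5 CPM in the KO and 16.5 to 20.4 CPM in controls, without overlap. Itga2b made up most of these platelet sums, at 29.5 ± 3.92 CPM in the KO and 12.6 ± 1.38 CPM in controls. Of the 5 platelet markers 4 rose, while Pf4 did not pass, at 3.31 ± 0.615 CPM in the KO and 4.90 ± 1.73 CPM in controls. The part of both lists in the Notum result was not tested. Dkk3, a divergent member of the Dickkopf family, fell. It stood at 0.778, 9.44, 9.37 and 1.33 CPM in KO libraries 1 to 4, against 47.6, 65.2 and 84.6 CPM in controls 1 to 3 (log2 fold change -3.64, SE 0.690, adjusted p = 0.00271, edgeR). KO 2 and KO 3 were again the higher KO libraries, as they were in Maf and in the pan-endothelial and sinusoidal sums, whose part in the Dkk3 result was not tested. Frzb, a secreted Frizzled-related protein gene, averaged 1.23 ± 0.306 CPM in the KO and 1.203 ± 0.169 CPM in controls (adjusted p = 0.925, edgeR). Of the 5 genes for R-spondin receptors and the E3 ligases they act on, 3 passed the filter. By edgeR 0 of them passed the test and 0 had an unadjusted p under 0.05, and DESeq2 and limma-voom likewise called 0. The receptor gene Lgr4 averaged 8.09 ± 1.42 CPM in the KO and 6.005 ± 1.91 CPM in controls, with a 95% interval of the log2 fold change from -0.0966 to 0.962.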

How the data were processed

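Polyadenylated RNA of sorted mouse liver endothelium was sequenced in 4 Maf KO and 3 control libraries. Libraries were made, per the labels' protocols, with an unstranded or a stranded TruSeq kit, without saying which. The deposited table holds whole-number counts of reads for each Ensembl gene, made by the authors and not normalized. FastQC 0.11.5, STAR 2.7.6a and genome build GRCm38 are named per the submitters' processing notes. Neither the counting tool nor its annotation or strand setting is given in the sources used here. Of 52636 IDs, 52489 had a symbol and 147 had none. Positions and exon lengths come from GENCODE mouse release M21 on the same build.

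In R 4.3.3 with edgeR 4.0.16, low genes were removed by filterByExpr (minimum count 10, total 15), libraries were scaled by TMM, and KO was tested against control by the quasi-likelihood F-test without covariates. Benjamini-Hochberg adjustment ran over all genes tested, at 0.05. SEs are the log2 fold change over the square root of F. Within groups every pair of libraries differed by more than counting error (chi-square over degrees of freedom 14.5 to 106). Limits for a count of 0 cover counting error only. Tests were tried on simulated counts.

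Alternatives were other scalings and filters, DESeq2 1.42.0, limma-voom (limma 3.58.1), lane 5 by itself, a lane term, a replicate block and leaving out each library. The 10 genes, the lists and the tests were chosen with earlier results of these data known. All 10 genes were named by rule, with Maf, tested or untested members of the 4 lists by value, and the 3 genes most alike to each of Wnt2, Wnt9b and Rspo3 by Pearson r. Marker genes were named for their cell type.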

Additional observations from a re-analysis of the deposited data

Results flagged for a closer look

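In the 27 genes examined, the KO values of 4 stood apart in a single library, by a gap to the nearest other library that exceeded Dixon's 95% critical value for 4 libraries. Chance alone gives this in about 5% of groups, or 1.4 of 27. Rspo3 was low in KO 1, at 47.3 CPM beside 63.2 to 64.0 CPM in the other KO libraries. Wnt11 was high in KO 1, at 0.849 CPM. Porcn was high in KO 3, at 7.62 CPM, though still under the controls. Wnt5a was highest in KO 3, at 0.204 CPM, which is 7 counts.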

How the results depend on the processing

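Wnt2, Wls and Porcn kept their direction and their call in all 19 alternatives run, with log2 fold changes from -1.997 to -1.16, from -1.22 to -0.38 and from -1.60 to -0.73. Of the tested genes 1 rose and 4 fell. Rises numbered 2 with library totals, the lane as covariate, the replicate block, both control 3 and KO 1 left out, and the pan-endothelial sum as scale, in each case Wnt9b beside Wnt11, and 0 with a minimum count of 50, where Wnt11 was not tested. Leaving out single libraries gave 0 to 2 rises and 3 to 5 falls. Leaving out both control 3 and KO 1, an alternative chosen after seeing the data, left Rspo3 uncalled (log2 fold change -0.26, adjusted p = 0.0969) and brought Wnt4 to 0.38. The pan-endothelial scale, also chosen after seeing the data, brought Rspo3 to 0.0563 (adjusted p = 0.813) and Wnt5b to 0.0219. Without control 3 Wnt4 came to 0.24, and without control 1 to -1.70 (adjusted p = 0.0454). Of all genes 6373 rose and 1976 fell with library totals, and 10090 rose and 773 fell on the pan-endothelial scale, against 3561 and 3448 with TMM. Over all genes the median log2 fold change, 0.0433 under TMM, became 0.169 by upper quartile, 0.308 by library totals and 0.734 on the pan-endothelial scale. The cause of these changes was not tested. Among the other lists, 1 R-spondin receptor gene rose with library totals and on the pan-endothelial scale, where 1 other Wnt gene rose, 3 carrier genes rose and 1 fell. With no filter 2 inhibitors rose, and with a minimum count of 50, where Wnt9a was not tested, 0 other Wnt genes fell. Without single libraries, 4 to 8 carrier genes fell, 1 to 2 inhibitors fell, and all genes gave 2379 to 3769 rises and 2584 to 3930 falls. Deviations from the group means of libraries with the same number correlated at r of -0.0133, 0.162 and 0.0674. KO 2 and KO 3 correlated best with the control of the same number, and KO 1 with control 3. The titles do not say that the numbers mark pairs, so the main test had no block. With the replicate block 2542 genes rose and 2627 fell, and Wnt9b passed (0.40, adjusted p = 0.0324). Low counts limit Wnt4, Wnt5a, Wnt5b, Wnt11 and Rspo1, and also Wnt9a.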
